A study of Oryza sativa with 18 samples.

Results

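Rice nuclear genes for pentatricopeptide repeat (PPR) proteins of the chloroplast were followed through input RNA and m6A peaks. The members were all genes of the expression table whose description holds both "pentatricopeptide" and "chloroplastic", which gave 48 of 38663 genes. The study took Nipponbare rice, a japonica cultivar grown in the field, and collected panicles at flowering, panicles at booting and flag leaves at flowering. Each organ and stage gave 3 input libraries and 3 libraries enriched with an antibody against m6A, the N6-methylated adenosine of mRNA, so 18 libraries in all. Panicles were collected on 14 August (flowering) and 3 August (booting), all organs at about 3 PM, and no treatment or mutant was part of the design. The 2 panicle stages were collected on different days, so a stage cannot be told apart from its day. No collection day was listed for the flag leaves. Booting panicles differ from flag leaves in organ and in stage, which cannot be told apart. Whether the replicates came from separate plants is not labelled, and p-values cover only the spread among them, which may be technical. Levels are FPKM, fragments scaled by transcript length and library size, and can be compared between genes because they are per length.

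PPR proteins are made in the cytosol and imported into chloroplasts or mitochondria, where each binds particular organelle RNAs through a row of repeats that read the RNA base by base. In chloroplasts they take part in C-to-U editing, splicing of introns, trimming and protection of RNA ends, and translation. Members of the PLS subclass, many with an E or DYW domain at their end, serve mainly in editing, and members of the P subclass mainly in splicing, stability and translation. Flowering plants have large families of these genes, and loss of a chloroplast PPR protein often gives pale or albino leaves.

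The descriptions name the Arabidopsis protein that each rice gene resembles, under 40 distinct names. For 29 members a role known from Arabidopsis or maize for that protein, or its maize counterpart, was assigned here. Of these 29, 17 belong to editing, 5 to splicing, 4 to RNA stability and translation, 1 to early chloroplast development and 2 to mitochondrial RNA. The other 19 were given no role, which does not mean that none is known, so the lists by role may be incomplete. The roles are those of the named proteins and were not shown for the rice genes. Roles of members named after PPR4, DG1, BFA2, SOT5, OTP70, OTP87 and BIR6 were assigned after values were seen. Counts and medians by role are therefore descriptions only. Gene ontology terms in the table name the chloroplast for 39 members and the mitochondrion for 16, of which 3 lack the chloroplast term. For 6 members they name neither organelle. The members lie on 11 chromosomes, 42 have 1 transcript, and their genomic spans run from 1413 to 24778 bases with a median of 2833.

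Libraries carried the markers of their labels. RuBisCO activase (LOC_Os11g47970) stood at 1263 to 1474 FPKM in flowering panicles, 55.5 to 78.2 FPKM in booting panicles and 15110 to 15990 FPKM in flag leaves. The floral regulator MADS6 (LOC_Os02g45770) stood at 76.3 to 83.4 FPKM in flowering panicles, 80.4 to 85.0 FPKM in booting panicles and 0.0506 to 0.375 FPKM in flag leaves. Between the stages, expansin-B9 (LOC_Os10g40090) stood at 2943 to 3612 FPKM in flowering and 6.5 to 8.7 FPKM in booting panicles. Type III polyketide synthase A (LOC_Os10g34360) stood at 0.738 to 1.07 FPKM in flowering panicles and, with a wide spread, at 250.4 to 648.0 FPKM in booting panicles. Replicates correlated at 0.9875 to 0.9956 (Pearson, across genes), and the FPKM of a library summed to 504583 to 569592. The depth of the libraries is not known from the files.

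Chloroplast PPR transcripts, summed over the members, were most abundant in flag leaves. Their FPKM summed to 220.1, 208.5 and 229.1 in flowering panicles and to 168.3, 180.5 and 158.6 in booting panicles, against 627.0, 606.5 and 637.0 in flag leaves. All 3 flag leaf sums lay above all panicle sums, and the sums of the 2 panicle stages did not overlap. As a share of all FPKM these sums came to 0.0366 to 0.0408% in flowering panicles, 0.0306 to 0.0357% in booting panicles and 0.114 to 0.120% in flag leaves. LOC_Os04g49350 alone supplied 155.4 to 172.0 FPKM of the flag leaf sums. Without it the sums were 175.2 to 192.6 in flowering panicles, 150.3 to 170.9 in booting panicles and 451.0 to 464.9 in flag leaves. The median member stood at 2.33 to 2.56 FPKM, 1.81 to 2.18 FPKM and 4.65 to 5.05 FPKM in the libraries of the same 3 groups. In whole organs, fewer cells with developed chloroplasts and less RNA of these genes per cell cannot be told apart.

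**Figure D1:**
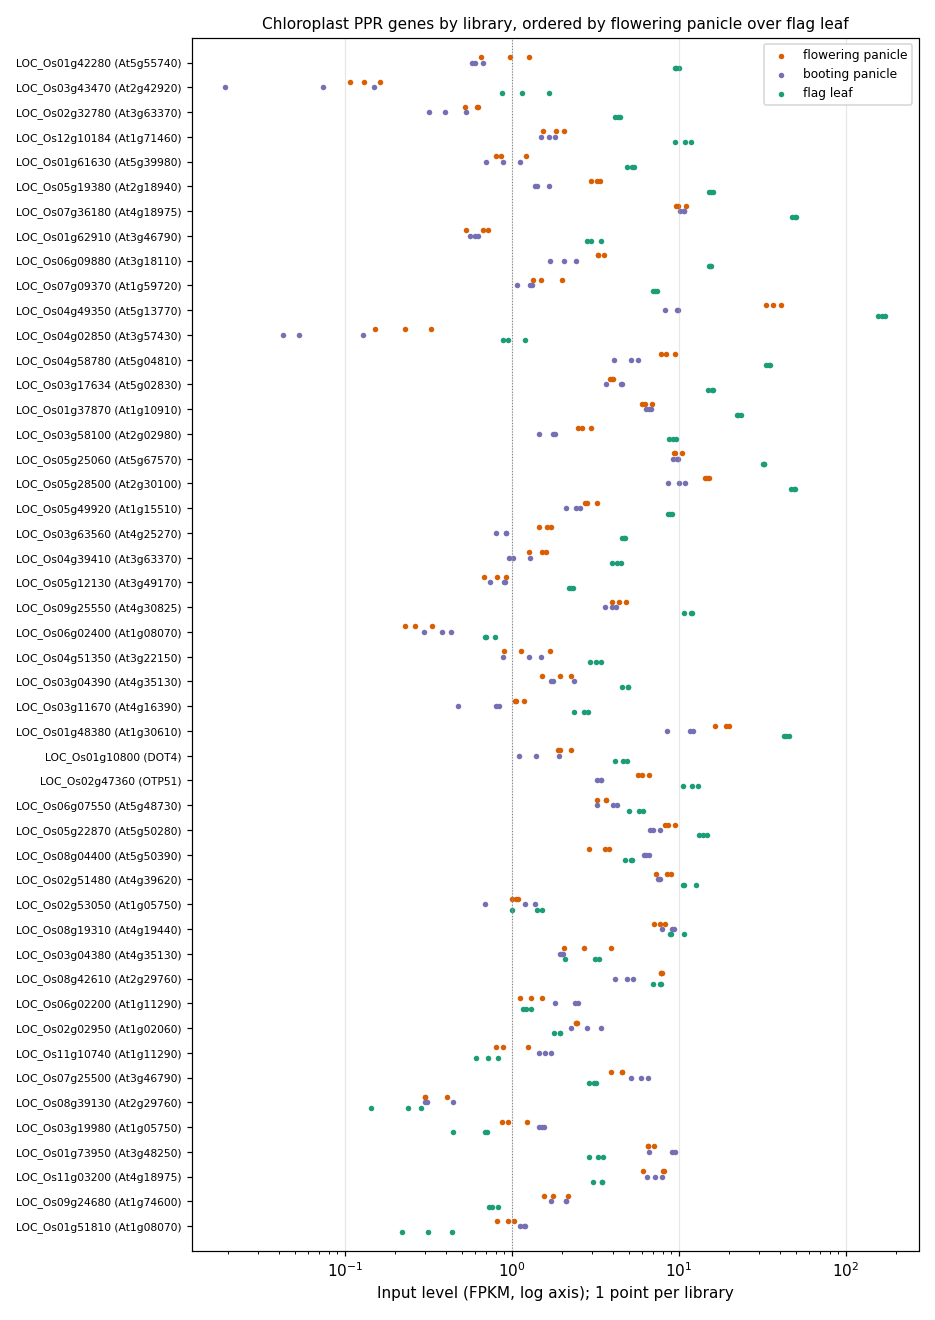
Input level of each of the 48 chloroplast PPR genes (FPKM, log axis) in the 9 input libraries, 1 point per library, with genes ordered by the flowering panicle mean over the flag leaf mean. Flag leaf points stand to the right of all panicle points in 33 genes and to the left of them in 8 genes near the bottom; the dotted line marks 1 FPKM.

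The levels among members spread widely. In flag leaves the highest means were those of LOC_Os04g49350 (163.8 FPKM), LOC_Os07g36180 (48.9), LOC_Os05g28500 (48.3), LOC_Os01g48380 (44.0) and LOC_Os04g58780 (34.2). In flowering panicles they were those of LOC_Os04g49350 (36.9 FPKM), LOC_Os01g48380 (18.5), LOC_Os05g28500 (14.7), LOC_Os07g36180 (10.1) and LOC_Os05g25060 (9.74). In booting panicles LOC_Os01g48380 (10.7 FPKM), LOC_Os07g36180 (10.5), LOC_Os05g28500 (9.80), LOC_Os05g25060 (9.59) and LOC_Os04g49350 (9.25) were the highest, and each overlapped its neighbour in that order. At the low end, 4 members did not reach 1 FPKM in 3 libraries and were not tested. These were LOC_Os03g43470, LOC_Os04g02850, LOC_Os06g02400 and LOC_Os08g39130, with group means of at most 1.23 FPKM. The highest group was the flag leaf for 32 of the 44 tested members (72.7%), booting panicles for 9 and flowering panicles for 3. Over all 23355 tested genes the flag leaf was highest for 25.6%.

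In flowering panicles 22 of the 44 tested chloroplast PPR genes fell relative to flag leaves, and 0 rose. A call needed a log2 change of FPKM + 1 of at least 1 either way and an adjusted p under 0.05 from limma (Benjamini-Hochberg, all tested genes). The members called lower were 50% of those tested, where 11.5% of all genes were called lower and 31% higher. The median log2 change was -0.96 for the members and 0.44 for all genes. At an adjusted p under 0.05 and any size of change, 32 members were lower and 6 higher, with 24.8% of all genes lower and 57.6% higher. The libraries of the 2 organs did not overlap for 32 lower and 8 higher members, with 25.8% of all genes lower and 59.5% higher in that way. With a pseudocount of 5 FPKM 12 members were called, all lower, and with 0.1 FPKM 26 were lower and 4 higher. Among the calls lost at 5 FPKM were those of LOC_Os07g09370, LOC_Os03g58100, LOC_Os05g49920, LOC_Os04g39410, LOC_Os03g63560, LOC_Os09g25550 and LOC_Os03g04390. Under quantile normalization 31 members were lower and 0 higher. That scaling moved the median of all genes by -0.56 and the share of all calls that were higher to 47.1%, from 72.9% with the deposited values. Of the 44 tested members, 5 reached the minimum level only through the flag leaf (LOC_Os01g42280, LOC_Os01g61630, LOC_Os01g62910, LOC_Os02g32780 and LOC_Os05g12130), and 4 of these were called lower. They had to stand higher in flag leaves to be tested, so their changes are given as values only. Among the other 39, 18 were called lower and the median log2 change was -0.88. These 39 include LOC_Os01g51810, LOC_Os03g19980, LOC_Os09g24680 and LOC_Os11g10740, which reached the minimum level only through panicles.

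LOC_Os04g49350, described after At5g13770 (chromosome 4, 29455859 to 29458125, plus strand, in a genome build that no source used here names), was the most abundant member. It stood at 40.95, 33.32 and 36.48 FPKM in flowering panicles and at 9.86, 9.65 and 8.25 FPKM in booting panicles, against 163.9, 155.4 and 172.0 FPKM in flag leaves. The 3 groups did not overlap. Its log2 change against flag leaves was -2.12 in flowering panicles (SE 0.09, adjusted p = 8.25e-09) and -4.01 in booting panicles (SE 0.09, adjusted p = 6.38e-11). No other tested member differed between the panicle stages by as much.

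Editing factors varied widely among themselves. Of 14 tested, 6 were called lower and 0 higher in flowering panicles against flag leaves, with a median log2 change of -0.89. Without the 2 that reached the minimum level only through the flag leaf, 4 of 12 were called lower, with a median of -0.52. LOC_Os01g42280, described after CRR21, which in Arabidopsis is needed to edit ndhD RNA of the chloroplast NDH complex, stood at 1.26, 0.652 and 0.970 FPKM in flowering panicles, against 9.59, 9.51 and 10.03 FPKM in flag leaves. Its log2 change was -2.46, with a flag leaf mean 10.1 times that of flowering panicles, but it is 1 of the 5 members tested only through their flag leaf level. Of the other members named after editors of ndh RNAs, LOC_Os07g09370, LOC_Os03g58100 and LOC_Os05g49920 were called lower, while the OTP82-named LOC_Os01g51810 (0.545) and the 2 CRR22-named loci were not called. LOC_Os07g09370 (CRR28, ndhB and ndhD) had 1.33, 1.49 and 1.98 FPKM in flowering panicles, against 7.35, 7.21 and 6.97 FPKM in flag leaves (-1.66, adjusted p = 1.63e-07). LOC_Os03g58100 (OTP85, ndhD) had 2.49, 2.61 and 2.96 FPKM in flowering panicles, against 9.21, 8.76 and 9.59 FPKM in flag leaves (-1.47, adjusted p = 1.29e-07). LOC_Os05g49920, named after ECB2, an editor of accD and ndhF RNA, had 2.71, 2.81 and 3.23 FPKM in flowering panicles, against 8.85, 8.59 and 9.04 FPKM in flag leaves (-1.33, adjusted p = 2.44e-07). In each of these 4 genes the groups stood apart. Of the 2 loci named after OTP86, an editor of rps14 RNA, LOC_Os04g39410 was called lower (-1.09). The other, LOC_Os02g32780, had a change of -1.73 and was tested only through its flag leaf level.

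Among editing factors that were not called, LOC_Os01g10800, named after DOT4 (rpoC1 RNA), had 1.93, 1.87 and 2.25 FPKM in flowering panicles, against 4.85, 4.15 and 4.59 FPKM in flag leaves (log2 change -0.88). LOC_Os04g51350, named after AEF1, which edits atpF RNA in Arabidopsis and rice, had 1.13, 0.900 and 1.70 FPKM in flowering panicles, against 3.18, 2.94 and 3.42 FPKM in flag leaves (-0.91). Both stood apart from the flag leaf by less than the threshold. Without flowering panicle replicate 3 the AEF1-named gene was called (-1.05). LOC_Os08g42610, named after OTP81, an editor of an rps12 intron, had 7.82, 7.86 and 7.81 FPKM in flowering panicles, against 6.96, 7.65 and 7.79 FPKM in flag leaves (0.06, adjusted p = 0.53). LOC_Os02g53050, 1 of 2 loci named after CLB19, an editor of rpoA and clpP RNA, had means of 1.05 FPKM in flowering panicles and 1.30 FPKM in flag leaves (-0.17, adjusted p = 0.269). Under quantile normalization this gene was called lower (-1.10, adjusted p = 8.54e-06), as were LOC_Os01g10800 (-1.64) and LOC_Os04g51350 (-1.75). The 2 loci named after CRR22, LOC_Os06g02200 and LOC_Os11g10740, had log2 changes of 0.05 and 0.20, not called, which turned to -0.88 and -0.78 under quantile normalization. That of the OTP81-named LOC_Os08g42610 turned to -0.475. The 3 untested editing factors were LOC_Os04g02850 (OTP84), LOC_Os06g02400 (OTP82) and LOC_Os08g39130 (OTP81). LOC_Os04g02850 stood at 0.229, 0.327 and 0.152 FPKM in flowering panicles, against 0.944, 0.881 and 1.19 FPKM in flag leaves.

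Splicing factors fell in 3 of 5 cases in flowering panicles against flag leaves. The 3 that fell are those whose splicing role was assigned after values were seen. LOC_Os04g58780, named after PPR4, which acts in trans-splicing of rps12 RNA in maize and Arabidopsis, had 8.32, 7.74 and 9.46 FPKM in flowering panicles, against 34.4, 33.1 and 35.1 FPKM in flag leaves (-1.89, SE 0.11, adjusted p = 6.5e-08). LOC_Os01g48380, named after SOT5 (rpl2 and trnK introns), had 19.9, 16.4 and 19.1 FPKM in flowering panicles, against 42.4, 43.7 and 45.8 FPKM in flag leaves (-1.21, adjusted p = 5.86e-06). LOC_Os03g63560, named after OTP70 (rpoC1), fell by 1.13 on the log2 scale. Short of the threshold were LOC_Os02g47360, named after OTP51 (ycf3), at -0.86 (called at -1.39 under quantile normalization), and LOC_Os02g51480, named after PPR5 (trnG RNA in maize), at -0.42. LOC_Os02g51480 had 8.45, 7.28 and 8.92 FPKM in flowering panicles, against 12.7, 10.8 and 10.6 FPKM in flag leaves, groups that did not overlap but lay close together.

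Of the 4 members assigned here to stability and translation, 2 were called lower in flowering panicles against flag leaves, 1 of them tested only through its flag leaf level. The other is the BFA2-named gene, whose role was assigned after values were seen. LOC_Os09g25550, named after BFA2, which keeps atpH and atpF RNA stable in Arabidopsis, had 4.34, 3.94 and 4.78 FPKM in flowering panicles, against 10.7, 11.8 and 11.9 FPKM in flag leaves (-1.22, adjusted p = 4.72e-07). LOC_Os01g62910, 1 of 2 loci named after CRR2 (processing of ndhB RNA), had 0.719, 0.530 and 0.670 FPKM in flowering panicles, against 2.96, 2.82 and 3.42 FPKM in flag leaves (-1.31), and is the one tested only through its flag leaf level. LOC_Os03g11670, named after SVR7, which acts on rRNA and on translation of ATP synthase RNA, was not called at -0.80, but was under quantile normalization (-1.66). LOC_Os05g25060, named after DG1, a protein of early chloroplast development, had 9.47, 9.30 and 10.4 FPKM in flowering panicles, against 31.7, 32.1 and 32.4 FPKM in flag leaves (-1.63, SE 0.06, adjusted p = 4.93e-09).

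Members given no role here were called lower in 10 of 18 tested cases in flowering panicles against flag leaves. Without those tested only through the flag leaf, 9 of 16 were. The largest decreases were those of LOC_Os07g36180 (At4g18975, -2.17), LOC_Os04g49350 (At5g13770, -2.12), LOC_Os12g10184 (At1g71460, -2.06), LOC_Os05g19380 (At2g18940, -1.98) and LOC_Os06g09880 (At3g18110, -1.90). LOC_Os12g10184 had 2.05, 1.53 and 1.84 FPKM in flowering panicles, against 10.8, 9.51 and 11.7 FPKM in flag leaves. LOC_Os05g28500 (At2g30100) had 14.2, 14.8 and 15.1 FPKM in flowering panicles, against 48.7, 46.7 and 49.4 FPKM in flag leaves (-1.65, adjusted p = 1.73e-08). All of these stood apart from the flag leaf without overlap. Nearest to the threshold were LOC_Os03g04390 inside it (-1.01) and LOC_Os11g03200 outside it (0.96). The call of LOC_Os03g04390 was lost without flag leaf replicate 1 (-0.995), flag leaf replicate 3 (-0.998) or flowering panicle replicate 2 (-0.913). LOC_Os11g03200 was called higher without flowering panicle replicate 1 (1.08).

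A small set ran the other way. All 3 flag leaf libraries lay below all 6 panicle libraries for 8 of the 48 members, and for 7 of the 44 tested (15.9%), where 49.2% of all tested genes did so. Under quantile normalization the log2 change of 5 of these 7 turned negative in flowering panicles against flag leaves, and LOC_Os01g73950 (0.21) and LOC_Os11g03200 (0.31) stayed above 0. Among the 7, LOC_Os01g51810, LOC_Os03g19980 and LOC_Os09g24680 reached the minimum level only through panicles. They had to stand higher in panicles to be tested, so their changes are given as values only. All 3 flag leaf libraries lay above all 6 panicle libraries for 33 of the 48, and for 30 of the 44 tested (68.2%), where 21.1% of all tested genes did so. LOC_Os01g73950, named after BIR6, which in Arabidopsis acts in splicing of mitochondrial nad7 RNA, had 7.07, 6.51 and 6.47 FPKM in flowering panicles and 6.57, 9.48 and 9.07 FPKM in booting panicles, against 3.28, 3.50 and 2.89 FPKM in flag leaves. LOC_Os09g24680, named after OTP87, a mitochondrial editing factor of Arabidopsis, had 1.56, 1.76 and 2.16 FPKM in flowering panicles and 2.10, 1.71 and 2.10 FPKM in booting panicles, against 0.732, 0.755 and 0.827 FPKM in flag leaves. Both genes carry the word chloroplastic in their description, while the named Arabidopsis proteins are known from mitochondria. The roles of both were assigned after values were seen. LOC_Os01g51810, 1 of 2 loci named after OTP82, an editor of ndhB and ndhG RNA, had means of 0.927 FPKM in flowering panicles, 1.17 FPKM in booting panicles and 0.322 FPKM in flag leaves. The others were LOC_Os02g02950, LOC_Os03g19980 (CLB19), LOC_Os07g25500 (CRR2), LOC_Os08g39130 (OTP81) and LOC_Os11g03200. A mitochondrial gene ontology term was listed for 4 of these 8 genes, for 9 of the 33 genes above in flag leaves, and for 3 of the remaining 7.

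In booting panicles 24 of 44 tested members fell relative to flag leaves (54.5%) and 1 rose, where 17.7% of all genes were called lower and 36.4% higher. Called either way were 56.8% of the members and 54% of all genes. The median log2 change was -1.25 for the members and 0.51 for all genes. At an adjusted p under 0.05 and any size, 31 members were lower and 10 higher, with 28.4% of all genes lower and 57.1% higher. Libraries did not overlap for 32 lower and 10 higher members, with 29.2% of all genes lower and 58.7% higher in that way. Both comparisons with the flag leaf share its 3 libraries, so they are not independent. Without the minimum level, 25 of all 48 members were called lower and 1 higher. Among the 39 members that reached the minimum level other than through the flag leaf, 20 were called lower and 1 higher, with a median log2 change of -1.09. LOC_Os01g51810, LOC_Os03g19980, LOC_Os09g24680 and LOC_Os11g10740, among the 10 higher at any size, reached that level only through panicles. After LOC_Os04g49350 the largest decreases at a level of 5 FPKM or more were those of LOC_Os05g19380 (-2.75), LOC_Os04g58780 (-2.57), LOC_Os06g09880 (-2.43) and LOC_Os05g28500 (-2.19), leaving aside members tested only through the flag leaf. LOC_Os05g19380 had 1.40, 1.67 and 1.36 FPKM in booting panicles, against 16.0, 15.2 and 15.5 FPKM in flag leaves (SE 0.08, adjusted p = 3.97e-10). LOC_Os01g42280, which is among those, had 0.666, 0.603 and 0.572 FPKM in booting panicles, against 9.59, 9.51 and 10.03 FPKM in flag leaves (-2.73).

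By role, 7 of 14 tested editing factors, 4 of 5 splicing factors and 3 of 4 stability and translation factors were called lower in booting panicles than in flag leaves. Without those tested only through the flag leaf these were 5 of 12, 4 of 5 and 2 of 3. The splicing and the stability and translation lists hold roles assigned after values were seen. The member that rose was the BIR6-named LOC_Os01g73950 (1.14, SE 0.12, adjusted p = 8.87e-06), whose change was 0.54 under quantile normalization and 0.70 with a pseudocount of 5 FPKM, short of the threshold in both. With a pseudocount of 5 FPKM 14 members were called, all lower, and with 0.1 FPKM 27 were lower and 6 higher. Quantile normalization gave 30 members lower and 0 higher, and moved the median of all genes by -0.50 and the share of all calls that were higher to 50.6%, from 67.3% with the deposited values. LOC_Os03g11670 (SVR7, -1.09) lay just inside the threshold and was lost without booting panicle replicate 1 (-0.992). LOC_Os03g04390 (-0.99) lay just outside and was called without booting panicle replicate 2 (-1.09) or flag leaf replicate 2 (-1.02).

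Between the panicle stages the chloroplast PPR genes differed little. Of the 44 tested members, 1 rose in flowering panicles relative to booting panicles (2.27%) and 0 fell, where 18.1% of all genes were called higher and 15.3% lower. The median log2 change was 0.06 for the members and -0.09 for all genes. The sign of the members' median turned under equal library sums (-0.02) and under quantile normalization (-0.05). The gene that rose was LOC_Os04g49350, whose values are given above (1.89, SE 0.09, adjusted p = 2.87e-08). Next and short of the threshold was LOC_Os05g19380, with 3.23, 2.98 and 3.38 FPKM in flowering panicles, against 1.40, 1.67 and 1.36 FPKM in booting panicles (0.76, adjusted p = 1.35e-05). With a pseudocount of 0.1 FPKM its change was 1.07, and it was called.

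Some of these small differences were larger than the spread between replicates, as for genes in general. At an adjusted p under 0.05 and any size, 16 members were higher (36.4%) and 5 lower (11.4%) in flowering panicles. Of all genes 35.4% were higher and 42.7% lower. The stages did not overlap for 15 higher (34.1%) and 6 lower (13.6%) members, with 36.1% of all genes higher and 43.4% lower in that way. The higher members thus stood near the background and the lower ones under it. Splicing factors had the highest median of the roles, 0.68, with the roles of PPR4, SOT5 and OTP70 assigned after values were seen. LOC_Os01g48380 (SOT5) had 19.9, 16.4 and 19.1 FPKM in flowering panicles, against 11.6, 12.2 and 8.45 FPKM in booting panicles (0.74, adjusted p = 0.000288). LOC_Os02g47360 (OTP51) had 6.57, 5.64 and 6.002 FPKM in flowering panicles, against 3.43, 3.41 and 3.24 FPKM in booting panicles (0.70, adjusted p = 5.33e-05). LOC_Os04g58780 (PPR4) had 8.32, 7.74 and 9.46 FPKM in flowering panicles, against 5.18, 5.65 and 4.07 FPKM in booting panicles (0.68, adjusted p = 0.000205). In all 3 the stages stood apart, with changes under the threshold. Of the 5 lower members, LOC_Os08g04400 (At5g50390) had 3.59, 2.89 and 3.83 FPKM in flowering panicles, against 6.14, 6.60 and 6.34 FPKM in booting panicles (-0.74, adjusted p = 5.39e-05). The other lower ones were LOC_Os03g19980 (CLB19), LOC_Os07g25500 (CRR2) and both CRR22-named loci.

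**Figure D2:**
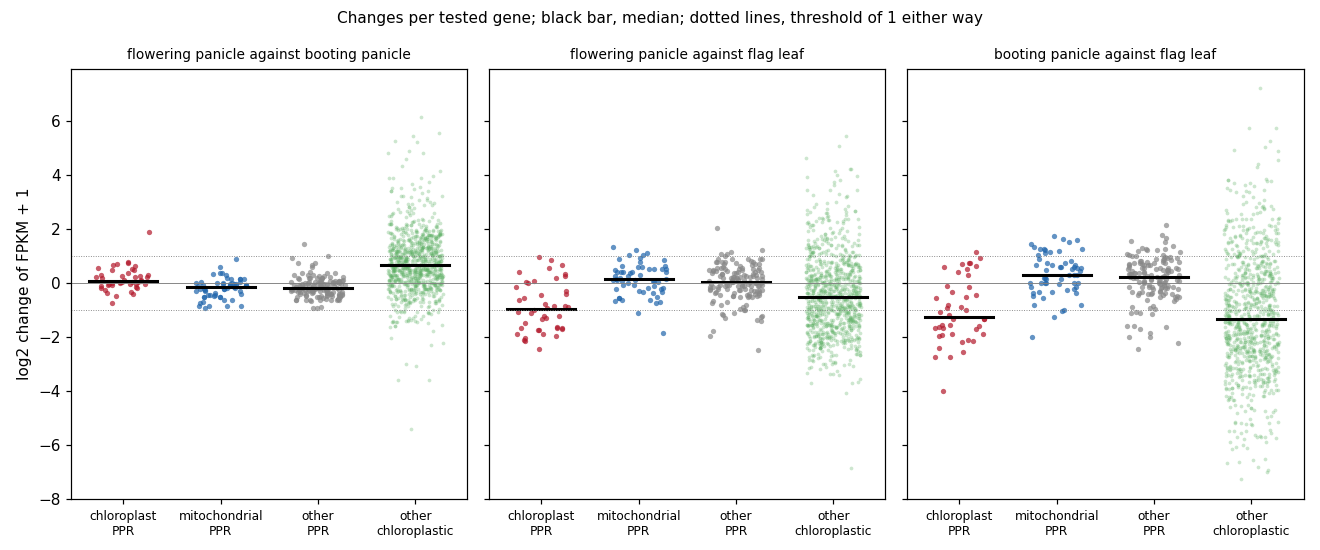
log2 change of FPKM + 1 per tested gene in flowering against booting panicles, flowering panicles against flag leaves and booting panicles against flag leaves, for 44 chloroplast PPR, 59 mitochondrial PPR, 139 other PPR and 891 other chloroplastic genes; black bars are medians and dotted lines the threshold of 1 either way. Against the flag leaf the chloroplast PPR medians lie at -0.96 and -1.25, and those of mitochondrial PPR genes at 0.13 and 0.31, which were -0.62 and -0.22 under quantile normalization.

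Other PPR genes and other chloroplast genes were counted in the same way. Of 59 tested PPR genes described as mitochondrial, 5 rose and 2 fell in flowering panicles against flag leaves (median log2 change 0.13), and 14 rose and 4 fell in booting panicles against flag leaves (0.31). Of 139 tested PPR genes described with neither organelle, 6 rose and 11 fell in flowering panicles (0.03), and 18 rose and 13 fell in booting panicles (0.22). Of 891 tested genes described as chloroplastic but not as PPR, 142 rose and 331 fell in flowering panicles (-0.50), and 143 rose and 493 fell in booting panicles (-1.32). Between flowering and booting panicles the mitochondrial PPR genes had 0 called of 59 at a median of -0.16 (limma, adjusted p and size as above). Under equal library sums 1 of them fell. In that comparison 1 of 139 other PPR genes rose and 0 fell (3 fell under equal library sums), and 332 of the other chloroplastic genes rose and 44 fell (median 0.66). The flag leaf was the highest group for 28.8% of mitochondrial PPR, 36.7% of other PPR and 61.6% of other chloroplastic genes. Quantile normalization turned the medians of mitochondrial PPR genes to -0.62 in flowering panicles and -0.22 in booting panicles against flag leaves, and those of other PPR genes to -0.85 and -0.46, with chloroplast PPR genes at -1.74 and -1.79. Under it 0 mitochondrial PPR genes rose and 16 fell in flowering panicles against flag leaves, and 3 rose and 10 fell in booting panicles against flag leaves. Other PPR genes then gave 1 that rose and 52 that fell in flowering panicles, and 3 that rose and 29 that fell in booting panicles. Under equal library sums the median of other PPR genes was -0.01 in flowering panicles against flag leaves. Differences between these lists were not tested.

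For 8 of the 40 names, 2 members carry the same description. Their log2 ratio of FPKM + 1 was compared between groups with a two-sided exact permutation test. With 3 libraries against 3 the smallest p it can give is 0.1, so no comparison could pass 0.05 and the ratios are given as a description. Of 24 comparisons 16 reached 0.1, which is 0.15 after Benjamini-Hochberg adjustment, at differences in log2 ratio as small as 0.07. How reads shared by similar loci were assigned, no source used here says, so the separate values of a pair are uncertain.

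The ratio differed most between organs for the 2 loci described after At4g18975. LOC_Os07g36180 (chromosome 7, 21621442 to 21624421, plus strand) had 9.81, 9.63 and 10.97 FPKM in flowering panicles and 10.1, 10.7 and 10.7 FPKM in booting panicles, against 50.1, 47.1 and 49.6 FPKM in flag leaves. LOC_Os11g03200 (chromosome 11, 1162136 to 1164910, minus strand) had 6.06, 8.06 and 8.17 FPKM in flowering panicles and 6.43, 7.95 and 7.18 FPKM in booting panicles, against 3.47, 3.43 and 3.04 FPKM in flag leaves. The log2 ratio of the first to the second was thus 0.41 in flowering panicles and 0.50 in booting panicles, against 3.54 in flag leaves, with no overlap between either panicle group and the leaf.

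The loci of the CRR2-named pair lay apart in panicles. LOC_Os01g62910 had 0.598, 0.629 and 0.559 FPKM in booting panicles, where LOC_Os07g25500 had 6.47, 5.94 and 5.13 FPKM. In flag leaves the loci were level, at means of 3.07 FPKM for LOC_Os01g62910 and 3.05 FPKM for LOC_Os07g25500. The log2 ratio of LOC_Os01g62910 to LOC_Os07g25500 was -1.70 in flowering panicles and -2.10 in booting panicles, against 0.005 in flag leaves. Of the OTP82-named pair, LOC_Os01g51810 had means of 0.927 FPKM in flowering panicles and 0.322 FPKM in flag leaves, where LOC_Os06g02400 had 0.274 FPKM and 0.724 FPKM, so their order was opposite in the 2 organs. In the OTP81-named pair LOC_Os08g42610 was the higher locus in every library, and LOC_Os08g39130 never passed 0.441 FPKM. Both CRR22-named loci kept a log2 ratio of 0.23 in flowering panicles, 0.32 in booting panicles and 0.38 in flag leaves, with groups that overlapped.

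**Figure D3:**
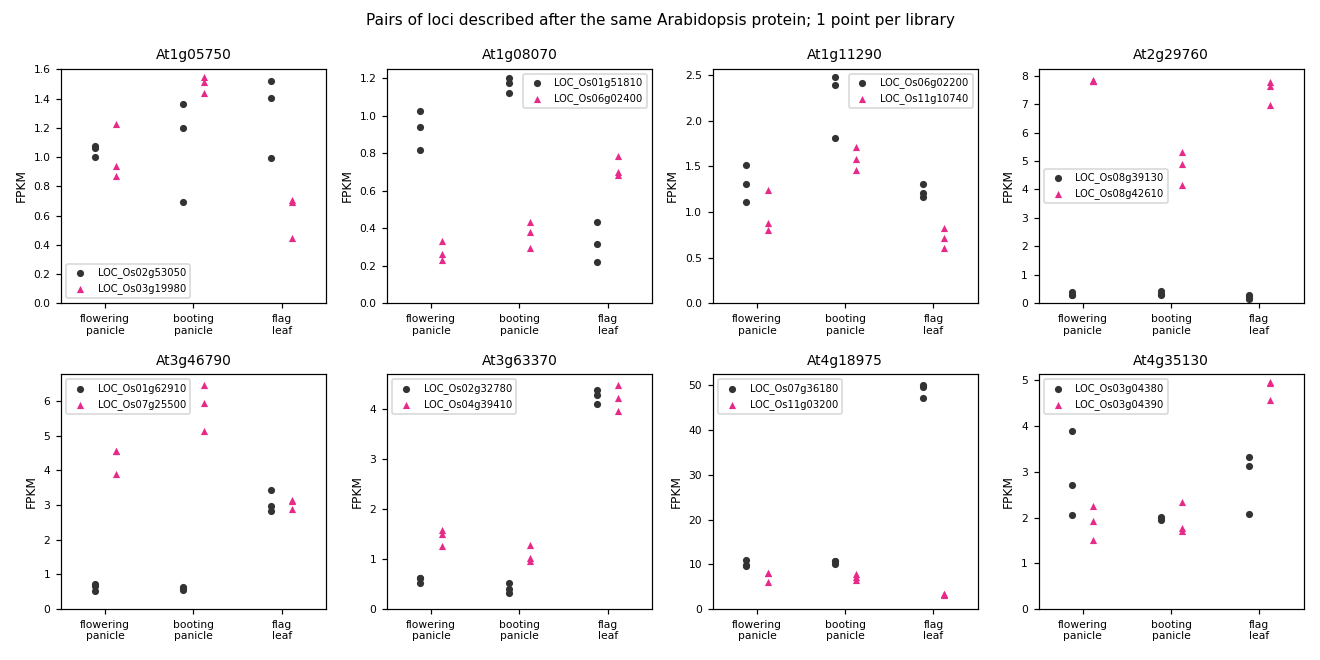
FPKM by library of the 8 pairs of loci described after the same Arabidopsis protein, in flowering panicles, booting panicles and flag leaves; circles and triangles are the 2 loci of a pair, and vertical axes differ between panels. In the At4g18975 panel the loci lie at 6.06 to 10.97 FPKM in panicles and separate to 47.1 to 50.1 and 3.04 to 3.47 FPKM in flag leaves.

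Overlapping genes bear on 9 members, each of which overlaps a gene on the opposite strand. The libraries were strand-specific per the labels, but whether the quantification used strand is not given in the sources here. The longest overlap is between 2 members, LOC_Os03g04380 and LOC_Os03g04390, both described after At4g35130, which share 2081 bases of chromosome 3. LOC_Os03g04380 had 2.05, 3.90 and 2.71 FPKM in flowering panicles, against 3.31, 3.12 and 2.08 FPKM in flag leaves, and its partner had 2.26, 1.51 and 1.93 FPKM in flowering panicles, against 4.96, 4.57 and 4.93 FPKM in flag leaves. The values of both are therefore uncertain. Of the CRR2-named pair, LOC_Os01g62910 overlaps its neighbour LOC_Os01g62900 by 1896 bases and LOC_Os07g25500 overlaps LOC_Os07g25510 by 16. The OTP70-named LOC_Os03g63560 overlaps LOC_Os03g63554 by 1114 bases, the BIR6-named LOC_Os01g73950 overlaps LOC_Os01g73940 by 582, and the CLB19-named LOC_Os02g53050 overlaps LOC_Os02g53040 by 511.

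Other genes of plastid RNA metabolism were counted in the same comparisons. PPR editing factors work with MORF proteins, of which 2 of 5 fell and 0 rose in flowering panicles against flag leaves (40%, where 11.5% of all genes were called lower). The other 3 had positive changes that were not called, and the median of the list was 0.27. MORF9 (LOC_Os08g04450) had 25.1, 26.2 and 28.8 FPKM in flowering panicles, against 78.7, 77.2 and 78.6 FPKM in flag leaves (log2 change -1.52, adjusted p = 2.83e-08), and MORF2 (LOC_Os04g51280) fell by 1.48. Of 10 plastid intron splicing factors 4 fell and 0 rose. CRS2-associated factor 2 (LOC_Os01g21990), a partner of CRS2 in group II intron splicing, had 9.21, 8.22 and 9.06 FPKM in flowering panicles, against 64.9, 61.5 and 66.5 FPKM in flag leaves (-2.73, adjusted p = 1.42e-09). All 5 sigma factors, which direct the plastid-encoded RNA polymerase to promoters, fell, with sigF (LOC_Os08g14450) at 9.82, 9.82 and 10.3 FPKM in flowering panicles, against 141.8, 133.4 and 146.3 FPKM in flag leaves (-3.69). Of 4 proteins associated with that polymerase 0 were called, and PTAC7 (LOC_Os01g50930) had a log2 change of -0.80, while quantile normalization called 2 lower. Of 10 plastid ribonucleoproteins 5 fell and 0 rose, and all 4 plastid RNases and stem-loop binding proteins fell.

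In flowering panicles against booting panicles, 5 of 10 ribonucleoproteins, 2 of 4 RNases and stem-loop binding proteins, 2 of 10 splicing factors, 1 of 5 MORF, 1 of 5 sigma and 1 of 4 polymerase-associated genes rose, and 0 of any fell. With 18.1% of all genes called higher, the last 4 of these lists lay near the background. Under equal library sums 1 splicing factor rose, and under quantile normalization 2 MORF genes did. A stem-loop binding protein of 41 kDa, CSP41a (LOC_Os07g11110), averaged 16.4 FPKM in flowering panicles, against 1.53 FPKM in booting panicles (2.78, adjusted p = 2.74e-09). Sigma factor sigE (LOC_Os05g50930) had 41.7, 39.3 and 31.3 FPKM in flowering panicles, against 6.86, 8.06 and 6.19 FPKM in booting panicles (2.25, adjusted p = 4.76e-08). In booting panicles against flag leaves 2 of 5 MORF, 5 of 10 splicing, 5 of 5 sigma, 1 of 4 polymerase-associated, 7 of 10 ribonucleoprotein and 4 of 4 RNase genes fell, and 0 rose, where 17.7% of all genes were called lower and 36.4% higher. The median of the MORF list was 0.13, and -0.28 under quantile normalization, which called 2 polymerase-associated genes lower.

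Of the 48 members, 24 had an m6A peak in at least 1 of the 3 deposited peak lists (50%), as did 50.3% of all genes of the table, expressed or not. The authors deposited 1 list per group, with no values for single replicates, so differences between lists have no replicate check and were not tested. Peaks were listed for 19 members in flowering panicles, 18 in booting panicles and 21 in flag leaves. Among members with a mean of at least 1 FPKM, 16 of 37 had a peak in flowering panicles (43.2%), where 66.8% of all such genes did. In booting panicles the members with a peak were 17 of 37 (45.9%, against 68.9% of all genes), and in flag leaves 19 of 42 (45.2%, against 75.9%). For mitochondrial PPR genes the shares were 58.5%, 54.5% and 69.2%, for other PPR genes 42.5%, 44.4% and 46.9%, and for other chloroplastic genes 83.3%, 83.9% and 87.2%, in the same order of groups.

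Members with a peak were in part the more abundant ones. In flowering panicles the 19 members with a peak had a median level of 4.36 FPKM and the 29 without 2.02 FPKM, in booting panicles 5.66 and 1.62 FPKM, and in flag leaves 5.17 and 4.67 FPKM. At 5 to 20 FPKM, 9 of 13 members had a peak in flowering panicles (69.2%, against 74.5% of all genes) and 9 of 13 in booting panicles (69.2%, against 74.3%). In flag leaves 6 of 17 members at that level had one (35.3%), where 81.9% of all genes and 11 of 13 mitochondrial PPR genes did. Other PPR genes at that level were also under all genes, with 13 of 24 in flag leaves (54.2%). Their shares were 44.4% in flowering panicles and 41.2% in booting panicles. At 20 FPKM and over in flag leaves 6 of 7 members had one (85.7%, against 84.7% of all genes), and at 1 to 5 FPKM 7 of 18 (38.9%, against 61.5%). In panicles at 1 to 5 FPKM 7 of 23 members had a peak at flowering (30.4%, against 49.2% of all genes) and 8 of 24 at booting (33.3%, against 49.5%). Of 24 members with at least 5 FPKM in flag leaves, 11 had no peak in any list. LOC_Os04g49350, the most abundant member, was among them, as were LOC_Os05g19380, LOC_Os03g17634, LOC_Os06g09880 and the OTP51-named LOC_Os02g47360. LOC_Os04g49350 is among 722 genes of the table with at least 100 FPKM in flag leaves, of which 164 had no peak in any list. A matching count over all genes at 5 FPKM or more was not made. By role, 12 of 17 editing, 2 of 5 splicing and 1 of 4 stability and translation factors had a peak in some list. So did 7 of 19 members given no role, and 50.3% of all genes, expressed or not. Of the 33 members higher in flag leaves 17 had one, near that background, and of the 8 lower in flag leaves 5. These differences were not tested.

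**Figure D4:**
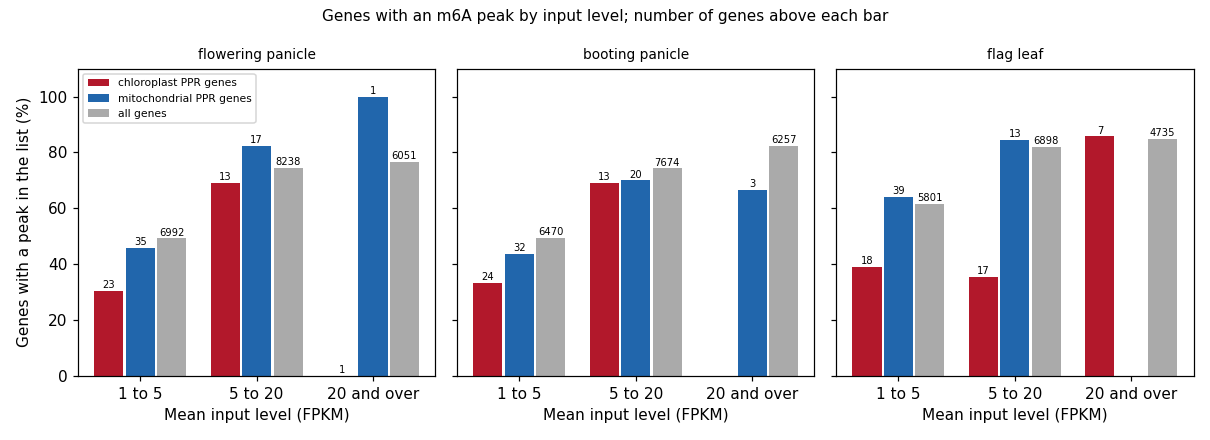
Share of genes with an m6A peak (%) by mean input level (1 to 5, 5 to 20, 20 FPKM and over) in flowering panicles, booting panicles and flag leaves, for chloroplast PPR, mitochondrial PPR and all genes, with the number of genes above each bar; a bin with no number holds no gene. At 5 to 20 FPKM in flag leaves the chloroplast PPR bar stands at 35.3% and that of all genes at 81.9%. Other PPR genes, not drawn, stood at 54.2% there.

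The peaks lay at the 3′ end of the genes. By the authors' position classes 19 of 20 member peaks in flowering panicles, 18 of 19 in booting panicles and 21 of 23 in flag leaves fell in the 3′ UTR (95%, 94.7% and 91.3%). Over all genes the 3′ UTR held 78.6%, 79.8% and 79.4% of peaks. The share was 92.2%, 93.2% and 95.8% for mitochondrial PPR genes, 90.1%, 89% and 91.2% for other PPR genes, and 93.1%, 94.9% and 94.8% for other chloroplastic genes, near that of the members. No member had a peak in the 5′ UTR class. Of the 3′ UTR peaks, 18 of 19, 15 of 18 and 18 of 21 ended within 100 bases of the annotated gene end or past it (94.7%, 83.3% and 85.7%). Over all genes 85.3%, 87.2% and 87% of 3′ UTR peaks did so, so the members stood near the background. The exceptions to the 3′ UTR class were LOC_Os05g22870 (At5g50280), with a second peak in exon 1 of 2 in every list, and LOC_Os04g02850 (OTP84), with a peak in its only exon in flag leaves. The 2 peaks of LOC_Os05g22870 in flowering panicles had the authors' fold of immunoprecipitate over input of 3.88 in the exon and 2.35 in the 3′ UTR. In flag leaves its 3′ UTR peak had a fold of 11.4 and the exon peak 2.08.

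**Figure D5:**
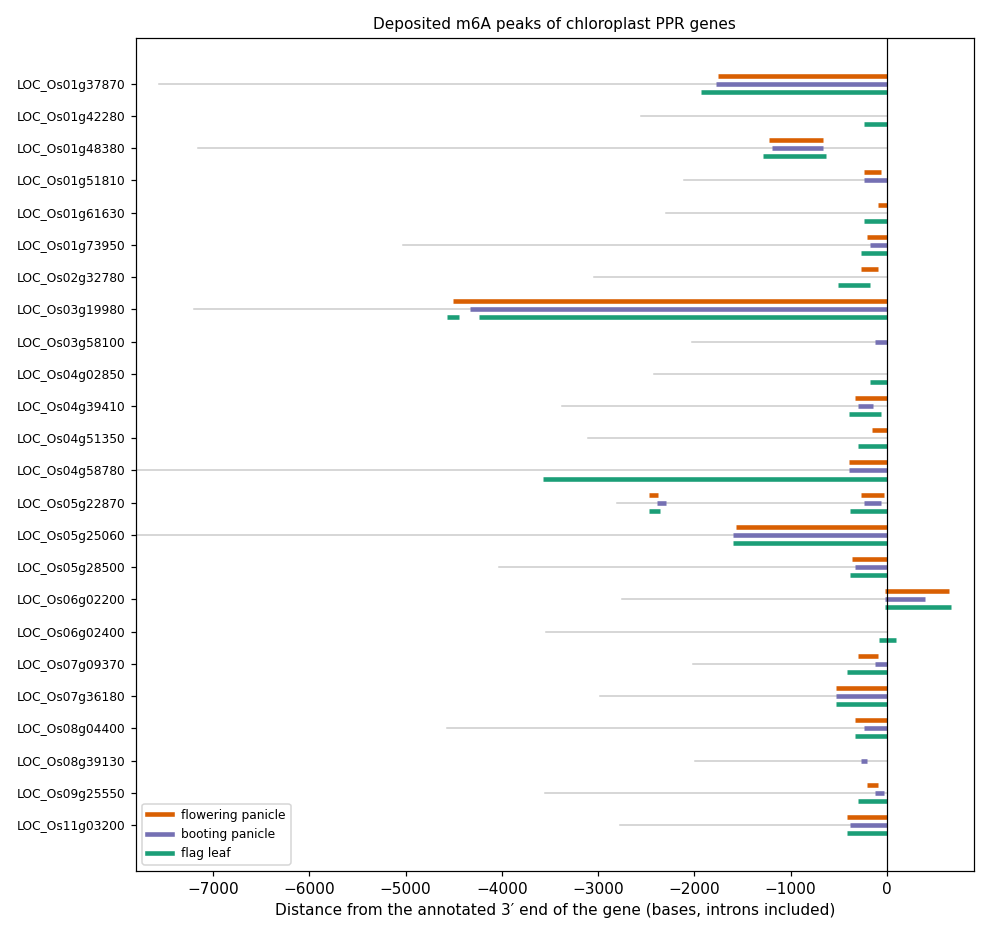
Position of the deposited m6A peaks of the 24 chloroplast PPR genes with a peak, as distance from the annotated 3′ end of the gene (bases, introns included); grey lines are gene spans and coloured bars peaks in flowering panicles, booting panicles and flag leaves. Most bars end at 0. Those of LOC_Os06g02200 begin just inside the gene and reach past its end, and LOC_Os05g22870 has a second group of bars near its start. Gene spans longer than the axis are cut off at its left edge.

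Peaks were listed in all 3 groups for 15 members (31.2%, against 36.3% of all genes), and 16 of their peaks overlapped in all lists by at least 1 base. The list includes the more abundant members LOC_Os07g36180, LOC_Os05g28500, LOC_Os01g48380 (SOT5), LOC_Os04g58780 (PPR4), LOC_Os05g25060 (DG1) and LOC_Os01g37870. LOC_Os07g36180 had the same peak of 531 bases at the gene end in every list (chromosome 7, 21623891 to 21624421), with a fold of 17.9 in flowering panicles, 31.1 in booting panicles and 14.1 in flag leaves. Its fold was higher than that of 86.3%, 91.0% and 63.6% of the peaks of the same lists. LOC_Os05g25060 (chromosome 5, 14498742 to 14500343 in flag leaves) had a fold of 24.6, 27.9 and 18.5, above 95.2%, 88.2% and 78.9% of peaks. Folds are the authors' and were ranked only within a list. Under the median fold of their list lay 11 of 20 member peaks in flowering panicles, 14 of 19 in booting panicles and 13 of 23 in flag leaves. A median divides its list evenly, so the counts in flowering panicles and flag leaves stood near the background. The count in booting panicles was higher, which was not tested.

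The highest fold of any member was 50.8, for LOC_Os03g19980 (CLB19) in flag leaves, above 99.2% of that list. Its input there was 0.692, 0.444 and 0.707 FPKM, and the log10 of the authors' p was -20.7, where LOC_Os05g28500 reached -2970 at a fold of 6.47. The same gene had a fold of 10.8 in flowering panicles, above 63.7% of that list, and one above 64.9% of the list in booting panicles. In each list this peak ran 4210 bases past the gene end given with the peaks, and to the gene end of the expression table. In flag leaves 330 of its 4240 bases were covered, in 2 blocks. Which gene end applies is not known here, so the assignment of these peaks to LOC_Os03g19980 is uncertain. The next highest folds in flag leaves were 19.8 for LOC_Os01g37870, 18.5 for LOC_Os05g25060 (DG1) and 16.8 for LOC_Os06g02200 (CRR22). The peaks of LOC_Os06g02200 began just inside the gene, were centred past its annotated end in all 3 lists and overlap the opposite-strand gene LOC_Os06g02210. The flag leaf peak of LOC_Os06g02400 (OTP82) likewise reached past its end into LOC_Os06g02410. The assignment of the peaks of LOC_Os06g02200 and LOC_Os06g02400 to the PPR genes is therefore uncertain. Without them, and with those of LOC_Os03g19980 kept, the members with a peak at 1 FPKM or more were 15 in flowering panicles, 16 in booting panicles and 18 in flag leaves.

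The pair described after At4g18975 carried peaks on both loci in every list. LOC_Os11g03200 had a fold of 10.8 in flowering panicles, 9.02 in booting panicles and 16.1 in flag leaves, above 63.7%, 44.2% and 71.1% of peaks. Of the CRR2-named pair neither locus had a peak in any list. Among members called lower in flowering panicles, peaks in all 3 lists were present on LOC_Os04g58780 and LOC_Os05g28500 and absent from LOC_Os05g19380 and LOC_Os06g09880. Peaks listed in 1 group alone were those of LOC_Os01g42280 (CRR21), LOC_Os04g02850 and LOC_Os06g02400 in flag leaves, and of LOC_Os03g58100 (OTP85) and LOC_Os08g39130 (OTP81) in booting panicles. The CRR21-named gene had its peak, at a fold of 3.01, in the organ where its input was 9.71 FPKM, and none where it was 0.960 and 0.614 FPKM. The OTP85-named gene went the other way. Its peak, at a fold of 2.84, was listed in booting panicles, where its input was 1.67 FPKM, and none in flag leaves at 9.19 FPKM. A link between level and peak was not tested.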

How the data were processed

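The authors deposited 1 table of FPKM for 38663 genes in 9 input libraries and 1 peak list per group, per the file headers. Cutadapt, HISAT2, StringTie, HOMER and ChIPseeker are named in the submitters' processing notes. For versions, peak caller, genome build and strand setting: not given in the sources used here. Per the file headers each peak has a ratio (fold) of immunoprecipitate over input, a p-value and scores that hold its base-10 logarithm, and the authors' position class. Whole fragments were not recovered from FPKM steps (30.6 to 39.8% of low values whole within 0.1, against 20% by chance), so tests of counts were not used. Genes with at least 1 FPKM in 3 or more input libraries (23355) were fitted as log2(FPKM + 1) in limma 3.58.1 (R 4.3.3) with a trended prior and all 9 libraries, after the code was tested on simulated data. Fold changes on this scale understate the change of low genes. p-values were adjusted over all tested genes. Peak overlap needed at least 1 base. Named genes were the 6 called members with the largest change each way at 5 FPKM or more and the 5 most abundant per group. Members given a role, the 6 highest folds per list and up to 2 genes of other lists by adjusted p were named too. Members just past or short of the threshold were named as well. Genes named as lacking a peak, and those called only with a replicate left out, were chosen after their values were seen. Members and lists were chosen with earlier results of these data known, and 7 roles (PPR4, DG1, BFA2, SOT5, OTP70, OTP87, BIR6) were added after values were seen. Sequences were not used here.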

Additional observations from a re-analysis of the deposited data

How the results depend on the processing

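Directions of the members called in the main fit held under every alternative run, with no reversal. Some members called higher only with a pseudocount of 0.1 FPKM turned negative under quantile normalization. In flowering panicles against flag leaves LOC_Os01g51810 went from 1.31 to -0.479 and LOC_Os09g24680 from 1.13 to -0.283. The counts moved with the pseudocount. At 5 FPKM, members called were 12 in flowering panicles against flag leaves and 14 in booting panicles against flag leaves, and all genes called were 4367 (flowering against booting panicles), 5303 and 7815 (against flag leaves). At 0.1 FPKM, 2 members were called between the panicle stages, 4 higher and 26 lower in flowering panicles against flag leaves, and 6 higher and 27 lower in booting panicles. By gene, 17 calls were gained at 0.1 FPKM, 21 lost at 5 FPKM, and 15 gained and 1 lost under quantile normalization. The cause was not tested. Leaving out a replicate gave 1 to 1, 21 to 23 and 24 to 27 members called, and 7608 to 7946, 9799 to 10076 and 12544 to 12754 genes. Same-number libraries of different groups had low residual correlations (-0.189 to 0.118, 2 of 9 over 0.1). Such values cannot show whether they were pairs, which the labels do not say. The replicate block gave 1, 22 and 25 members and 7807, 9934 and 12628 genes. Members with a peak were 11 in booting panicles at a log10 p of at most -10, and 9, 9 and 12 (flowering panicles, booting panicles, flag leaves) among members of at least 5 FPKM, where fewer members qualify. With an overlap of at least 50% of the shorter peak, 13 of 16 peaks stayed shared. The other alternatives (no minimum, a minimum of 5 FPKM, equal library sums, a fold of at least 4, members without "-like" or putative descriptions) kept each count of members, of all genes called and of members with a peak within 1.5 times. Counts of the comparison lists moved under equal library sums between the panicle stages, where splicing factors called higher were 1 (2 with the deposited values), and other PPR and mitochondrial PPR genes called lower were 3 and 1 (0 for both with the deposited values). The alternatives chosen after seeing the data, a mean of 1 FPKM over all libraries and leaving out peaks centred past the gene end, did so too.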
